A study of Gallus gallus with 4 samples.

Results

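Transcription units (TUs) that give rise to 6 or more isoforms were examined in a transcript assembly made from chicken oocytes with lampbrush chromosomes (LBCs). A TU was 1 gene of the assembler StringTie, an isoform was 1 transcript listed for that gene, and the top isoform was the one with the highest FPKM (the abundance of a transcript normalised for its length and for the sequenced total). The members were selected on measured values of the same assembly, namely 6 or more transcripts and a top isoform spanning less than 100 kb from its first to its last base, on chromosomes 1 to 15 and 17 to 28. They numbered 354 of the 22884 TUs in the whole assembly. This was 1.80% of the 19714 TUs within the limits on span and chromosome, and 4.66% of the 7591 TUs among them with 2 or more transcripts. The 5716 TUs with 2 or 3 transcripts within the same limits served for comparison, and another 1521 had 4 or 5.

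The labelled samples were WT oocytes at the stage of LBCs, the giant transcriptionally active chromosomes of the diplotene phase, and comprised 2 single nuclei and 2 ooplasm (oocyte cytoplasm) samples from which stranded poly(A) libraries had been prepared. The authors pooled the reads with earlier total RNA libraries of oocyte nuclei before assembly, and whether ooplasm reads entered the pool is not stated. The forward (FORW) and reverse (REV) reads were assembled in separate runs. Every value below therefore belongs to the pool, nucleus and ooplasm could not be compared, and there is no replicate error. Depth per library is unknown. The 40714 transcripts of the assembly carry identifiers but no gene names, so the TUs are given by identifier and by 1-based position on the assembly ASM2420605v2, and the labelled cell type could not be checked against its markers. Because the number of transcripts chose the members, their differences from other TUs are descriptions without a test. The 95% intervals (Wilson for shares, order statistics for medians) cover counting error alone and treat isoforms of 1 TU as independent, which they are not.

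A gene can yield several isoforms when transcription starts at another promoter, when the transcript is cleaved and polyadenylated at another site, or when the spliceosome joins exons differently. In exon skipping an exon is left out together with its flanking introns, whereas in intron retention an intron stays in the RNA and appears as part of a longer exon. In oocytes, growing loops of LBCs carry nascent RNA along their length, so nuclear RNA holds unspliced and partly spliced molecules beside mature ones, and an assembler can list both kinds as isoforms.

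Most members stood close to the limit on transcript number. There were 198 TUs with 6 transcripts (55.9% of the members), 83 with 7, 43 with 8 and 19 with 9, and 11 TUs had 10 or more. The largest numbers of isoforms were 16 in FORW.5564 and 13 in FORW.5482, both on chromosome 6. In total the members held 2406 transcripts, of which 2052 were minor isoforms, that is, isoforms other than the top one. Forward reads gave 171 members and reverse reads 183. Just inside the limit on number, TUs with 6 transcripts had a median top isoform FPKM of 2.49, a median span of 25.3 kb and 5 exons, against 2.49, 25.8 kb and 5 exons in TUs with 5 transcripts just outside it. The limit on span left out 77 TUs with 6 or more transcripts. The 24 members of 80 to 100 kb had a median top isoform FPKM of 1.51, whereas the 20 TUs of 100 to 120 kb outside the limit had 2.24. Of the TUs with exactly 6 transcripts, FORW.3539 and FORW.8773 had the strongest top isoforms, with an FPKM of 35.5 and 32.3. Outside the limit, with 5 transcripts, these were REV.8020 on chromosome 14 (15135340 to 15193814) with 59.7 and FORW.6141 on chromosome 7 (25137410 to 25180498) with 41.7. Next to the limit on span, REV.2328 and REV.7483 had the strongest top isoforms inside, with 5.65 and 4.64, and FORW.1159 and FORW.3638 outside, with 11.7 and 5.43.

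FPKM was spread over several isoforms in the members. The top isoform held a median of 32.1% of the summed FPKM of its TU (quartiles 26.4% and 40.7%, 95% interval 31.4% to 33.7%), against 67.1% in TUs with 2 or 3 transcripts. Such a share has to decrease as transcripts are added, since equal isoforms would each hold 16.7% in a TU with 6 transcripts and 50% in a TU with 2. The effective number of isoforms is the inverse of the summed squared shares. It had a median of 4.80 in the members and 1.82 in TUs with 2 or 3 transcripts. As a percentage of the isoforms listed, its median was 71.6% and 79.6%. Both forms still depend on the number of transcripts. The effective number cannot exceed it, and the percentage can fall to 16.7% with 6 transcripts but only to 50% with 2. The second isoform reached a median of 65.6% of the FPKM of the top isoform in the members and 41.7% in TUs with 2 or 3 transcripts. In 249 members (70.3%) it reached at least 50% of the top isoform, against 65.2% of TUs with 4 or 5 and 41.0% of TUs with 2 or 3 transcripts. It is the strongest of at least 5 minor isoforms in the members and of 1 or 2 in the comparison. A top isoform with more than 50% of the FPKM of its TU was found in 20 members (5.65%), against 18.1% of TUs with 5 and 36.4% of TUs with 4 transcripts, while with 2 transcripts the top isoform holds at least that much by definition. Per minor isoform the order was the opposite of that of the second isoform, with a median level of 31.8% of the top isoform over the 2052 minor isoforms of the members and 35.7% in TUs with 2 or 3 transcripts. Of those of the members, 21 (1.02%) lay under 5%, the fraction given to the assembler as its minimum.

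**Figure D1:**
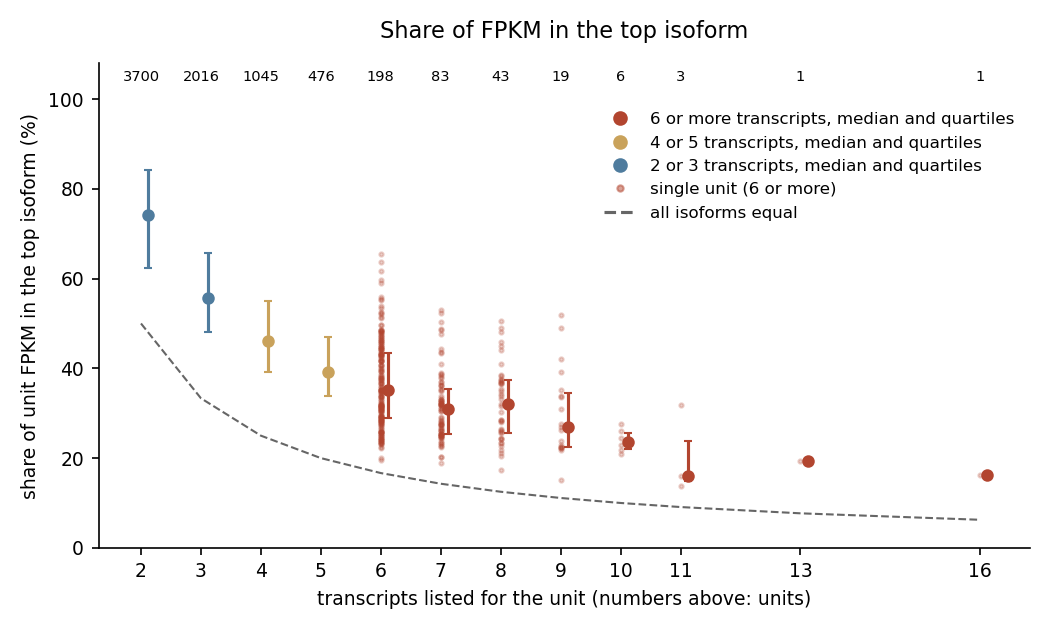
Share of the summed FPKM of a TU held by its top isoform (vertical axis, %) against the number of transcripts listed for the TU (horizontal axis). Large points with bars are medians with quartiles, small points are single TUs with 6 or more transcripts, the dashed line is the share if all isoforms were equal, and the numbers on top count TUs; the median is 35.1% at 6 transcripts and 74.1% at 2 transcripts.

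The lowest share belonged to FORW.6253 on chromosome 7 (36360049 to 36378358, plus strand), in which the top isoform held 13.8% of the FPKM. Its 11 isoforms had FPKM values of 5.21, 4.14, 3.95, 3.93, 3.61, 3.26, 3.18, 3.06, 2.64, 2.43 and 2.40. The strongest and the weakest thus lay within a narrow range, and the effective number of isoforms was 10.4. All 11 isoforms of this TU shared 1 start, 10 of them also shared the end, and 9 of its 10 minor isoforms differed from the top isoform by a retained intron. The other TUs with the lowest shares were REV.6084 on chromosome 8 (15.0%), FORW.9502 on chromosome 22 (16.1%), FORW.5564 (16.3%) and FORW.4724 on chromosome 5 (17.3%). In each of these 4, at least 5 isoforms lay wholly outside the top isoform.

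At the other extreme, REV.6426 on chromosome 8 (28383230 to 28436252, minus strand) had 65.6% of its FPKM in the top isoform, which had 12 exons and an FPKM of 27.3. Its other isoforms had FPKM values of 5.25, 3.52, 2.51, 2.02 and 1.02. Of these 5, 4 began more than 25 kb downstream of the start of the top isoform, beyond its end, and the remaining one with an FPKM of 3.52 spanned both stretches with 16 exons. REV.9962 on chromosome 27 had 63.7% and FORW.3539 on chromosome 3 had 61.6% in the top isoform. REV.8197 on chromosome 15 and REV.781 on chromosome 1 followed with 59.7% and 59.0%, at a lower top isoform FPKM of 2.86 and 2.85.

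The members reached well beyond their top isoform. The span of the top isoform had a median of 27.1 kb (95% interval 24.6 to 31.7 kb) in the members and 17.8 kb in TUs with 2 or 3 transcripts, although the rule capped it. Over all isoforms of a TU the median span was 56.9 kb in the members and 19.98 kb in TUs with 2 or 3 transcripts. The ratio of both spans, taken within each TU, had a median of 1.58 in the members and 1 in the comparison. A span of the whole TU of 100 kb or more was found in 95 members (26.8%), against 8.22% of TUs with 4 or 5 and 1.56% of TUs with 2 or 3 transcripts. The top isoform was the longest isoform in 31.4% of the members. This share, too, decreases with the number of transcripts, with 74.3% at 2, 60.02% at 3, 41.2% at 5 and 36.9% at 6.

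The members fell into 3 arrangements, whose definition was chosen after the values were seen. In 139 members (39.3%) at least 1 isoform lay wholly outside the top isoform, so that the TU was a chain of transcripts joined through others. Among all TUs with 2 or more transcripts 5.05% had such an isoform. A TU with 2 transcripts cannot have one, since a further transcript has to join both, and the share increased with the number of transcripts, with 3.13% at 3, 9.28% at 4, 17.6% at 5 and 25.8% at 6. In 182 members (51.4%) all isoforms overlapped the top one but differed in start or end. A single start and a single end, with variation by splicing alone, were left in 33 members (9.32%). The share was 21.1% in TUs with 4 or 5 and 47.2% in TUs with 2 or 3 transcripts, so it, too, changed with the number of transcripts. The chained members had a median TU span of 103 kb and 3 exons in the top isoform. The members with a single start and end were compact, with a median span of 12.2 kb and 5 exons, and their top isoform had a median FPKM of 4.54, against 2.57 in the chained members and 2.18 in the members of the remaining class.

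**Figure D2:**
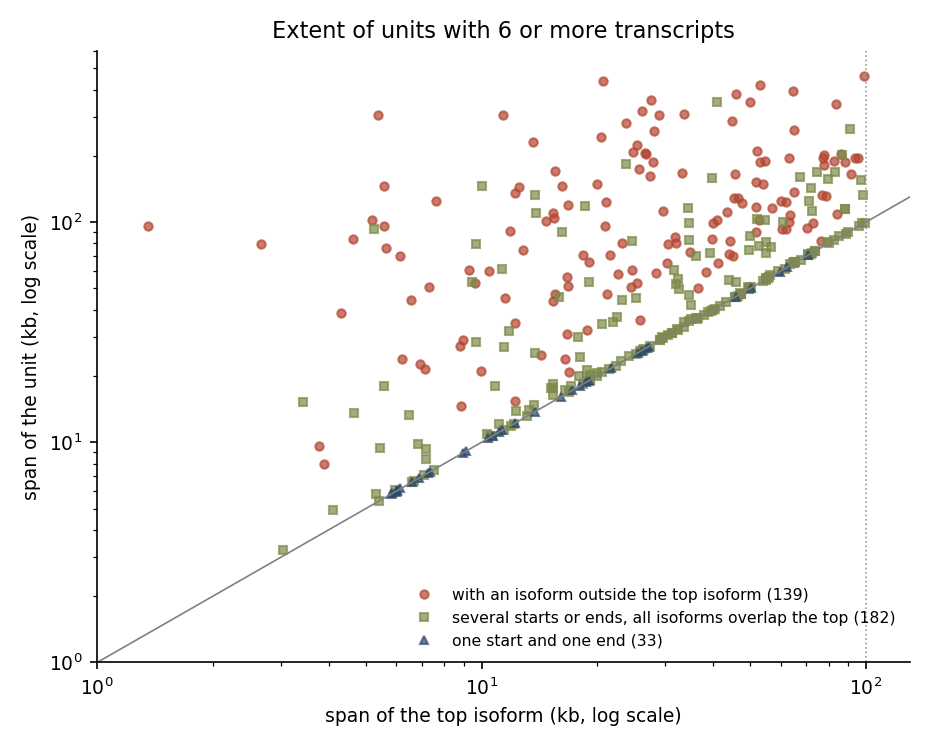
Span of the whole TU against span of its top isoform, both in kb on log axes, for the 354 TUs with 6 or more transcripts. Each point is a TU marked by its arrangement, the solid line marks equal spans and the dotted line the limit of 100 kb; the 139 TUs with an isoform outside the top isoform (circles) lie above the line of equal spans, and the 33 with a single start and end (triangles) lie on or next to it.

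By medians, the top isoform was weaker in the members than in the comparison, whereas the summed FPKM of the TU was higher. The top isoform had a median FPKM of 2.44 in the members (quartiles 1.53 and 4.32) and 3.84 in TUs with 2 or 3 transcripts. The summed FPKM of the TU had a median of 7.93 in the members and 5.89 in TUs with 2 or 3 transcripts, and the weakest isoform had 0.393 against 1.06. The direction of the medians thus depended on whether the top isoform or the whole TU was taken. The upper quartile of the sum was lower in the members, at 12.3 against 14.5. Each listed transcript had to pass a minimum of coverage, and the part of this minimum in the sum was not tested. Of the 6125 TUs with a summed FPKM below 1, 0 were members, and the lowest sum of a member was 1.85. The weakest isoform was the lowest of more isoforms in the members. The highest FPKM of a top isoform was 42.1 in the members, against 1197 in TUs with 2 or 3 transcripts. Coverage multiplied by exonic length, summed over isoforms, gives the sequenced bases behind a TU, and these read bases had a median of 1139 kb in the members and 521 kb in TUs with 2 or 3 transcripts. More sequence was thus available to the assembler in the members, and its part in their number of isoforms was not tested. Among TUs with 1000 to 2000 kb of read bases, the median top isoform FPKM was 2.82 in the 118 members and 8.50 in the 1147 TUs with 2 or 3 transcripts, the median span of the top isoform was 31.5 kb and 30.8 kb, and that of the TU 65.1 kb and 34.9 kb.

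The share of TUs that were members changed with both quantities. Below 100 kb of read bases 0.0133% of the TUs were members, between 2000 and 4000 kb 8.04%, and above 4000 kb 1.54%. With the span of the TU the share increased in every bin, with 0.0373% below 5 kb, 1.02% between 10 and 20 kb, 5.54% for spans of 50 to 100 kb and 30.7% once the TU reached 100 kb. The last bin holds no TU with a single transcript, because the top isoform had to stay below 100 kb. Members were found on all 27 chromosomes considered, at 0.873% of the TUs on chromosome 22 to 3.23% on chromosome 23. Chromosomes 1 to 5 had 186 members (1.69%) and the remaining ones 168 (1.92%). The median span of the top isoform was longer in the members than in TUs with 2 or 3 transcripts on 20 of the 21 chromosomes with at least 5 members, and its median FPKM was lower on 18 of them.

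The exons of the top isoform were longer in the members than in TUs with 2 or 3 transcripts. The top isoform had a median of 4 exons in the members and 6 in TUs with 2 or 3 transcripts, a difference that the reverse run showed (4 against 6) and the forward run did not (5 against 5). Within every bin of read bases that had a median for the members, theirs was the lower. It was 5 against 9 at 1000 to 2000 kb and 5 against 12 at 2000 to 4000 kb. Fewer exons in the members were found on 14 of the 21 chromosomes with at least 5 members, and the median isoform of a TU had 6 exons in the members and 5.5 in the comparison. The exons of the top isoform summed to a median of 10.8 kb in the members and 6.16 kb in the comparison. Its longest exon measured 6.87 kb and 3.97 kb, and exons filled 56.8% and 45.8% of its span. TUs with 4 or 5 transcripts lay between, with 9.17 kb, 6.21 kb and 51.6%, so these measures, too, changed with the number of transcripts. A top isoform with 2 or 3 exons was found in 136 members (38.4%), against 30.7% of TUs with 2 or 3 transcripts. Over all isoforms, the members had a median of 20 distinct exons and 14 distinct introns, against 8 exons and 6 introns in TUs with 2 or 3 transcripts. These exons are as the assembler drew them, and mature RNA need not contain them.

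Minor isoforms of the members often started or ended elsewhere than the top isoform. Another start, more than 100 bp from that of the top isoform, was found in 40.4% of the minor isoforms of the members (95% interval 38.3% to 42.5%) and in 22.8% of those of TUs with 2 or 3 transcripts. Another end was found in 60.1% (58.0% to 62.2%) and 32.1%. By TU, 242 members (68.4%) had a minor isoform with another start and 286 (80.8%) one with another end, where 32.4% and 43.7% of all TUs with 2 or more transcripts did, a count that grows with the number of isoforms compared. Ends outnumbered starts in 195 members (55.1%), against 41.7% of TUs with 4 or 5 and 27.8% of TUs with 2 or 3 transcripts, so this share, too, changed with the number of transcripts. Starts outnumbered ends in 63 members (17.8%), against 19.0% and 17.3%. The shifts, taken over all minor isoforms including those wholly outside the top one, were large. A start differing from that of the top isoform lay a median of 23.4 kb away in the members and 1.23 kb away in TUs with 2 or 3 transcripts, and a differing end 29.6 kb and 6.78 kb. Of the differing ends of the members 34.5% lay upstream of the end of the top isoform, and of the differing starts 44.3% lay upstream of its start.

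Part of this came with the isoforms outside the top one, of which the members had 380 (18.5% of their minor isoforms, against 1.56% in TUs with 3 transcripts, the fewest that allow one). When the minor isoforms that overlapped the top isoform were taken alone, 26.9% of those of the members had another start and 51.0% another end, against 22.1% and 31.6% in TUs with 2 or 3 transcripts. The direction was thus kept in both measures, by 4.71 percentage points for starts and 19.4 for ends. The distances given above include the 380 isoforms outside the top one and were not recomputed without them.

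**Figure D3:**
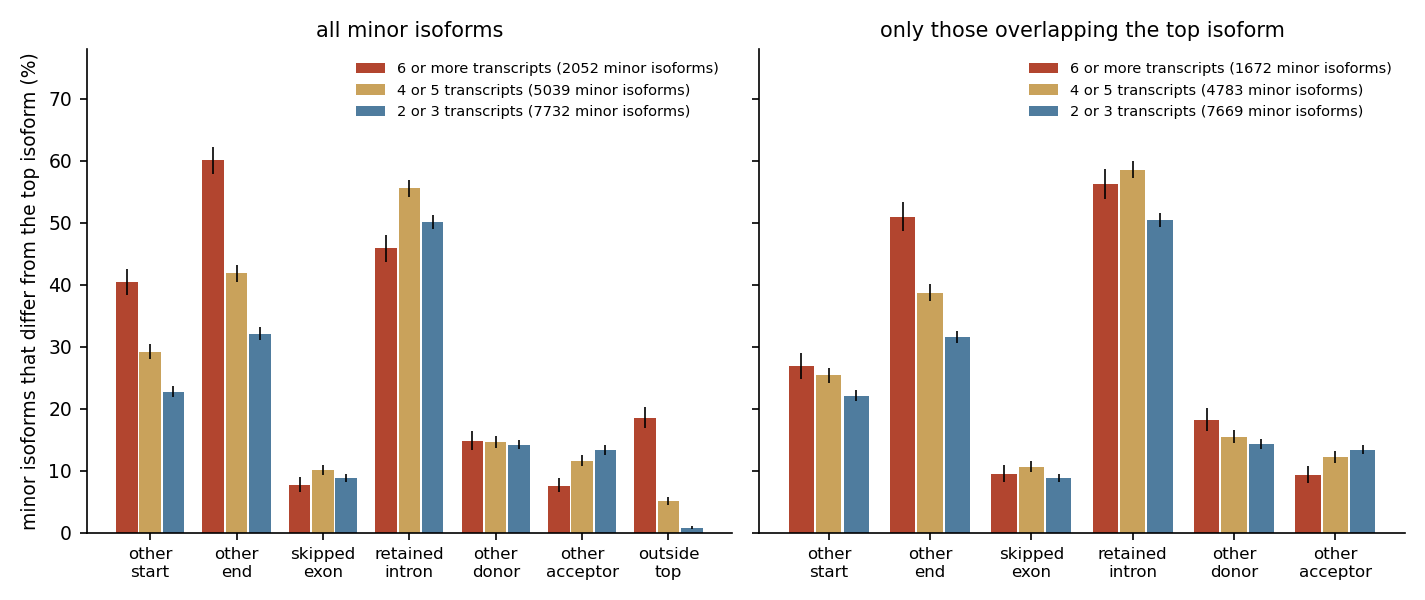
Share of minor isoforms (vertical axis, %) that differ from the top isoform of their TU in the way named on the horizontal axis, for TUs with 6 or more, 4 or 5, and 2 or 3 transcripts, over all minor isoforms (left) and over those overlapping the top isoform (right). Bars are shares and lines their 95% Wilson intervals; another end reaches 60.1% in the TUs with 6 or more transcripts against 32.1% in those with 2 or 3 on the left, and 51.0% against 31.6% on the right.

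The TUs with the most transcripts show how such chains were built. FORW.5564 on chromosome 6 (12744238 to 12820390, plus strand) spanned 76.2 kb, of which its top isoform, with 7 exons and an FPKM of 9.97, covered 5.64 kb near the 5′ end. Its 15 minor isoforms had FPKM values between 1.35 and 7.55. All 15 ended elsewhere than the top isoform, 9 started elsewhere, and 5 lay wholly outside it in a second block of exons that began 62.1 kb downstream of its start. Several isoforms, such as the third with an FPKM of 7.01 and a span of 67.3 kb, joined the first exons of the 5′ block to exons of the distal block across a long intron. Exons of 56, 122, 93 and 62 bp occurred in this order in both blocks, 63.6 to 63.8 kb apart, with the 93 bp exon followed by an intron of 520 bp in both.

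FORW.5482 on chromosome 6 (7243648 to 7626195, plus strand) was a weak and far longer chain of 383 kb. Its 13 isoforms had FPKM values between 0.139 and 0.889, and the top isoform had 2 exons within 45.8 kb. One isoform with an FPKM of 0.633 and 14 exons spanned 372 kb and linked separate groups of shorter isoforms, 6 of which lay outside the top one. The isoforms that began 245 kb from the 5′ end of the TU were joined to the rest by this transcript alone, and the number of reads behind the link is not given in the assembly.

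The remaining TUs with the most transcripts in the forward run were FORW.9502 on chromosome 22 (5048627 to 5144345) with 11 isoforms, 7 of them outside the top isoform, and FORW.7267 on chromosome 11 (7966043 to 8188971) with 10 isoforms, 5 of them outside. In the reverse run these were REV.2731 on chromosome 3, REV.5624 on chromosome 6, REV.10071 on chromosome 28 and REV.7378 on chromosome 12 with 10 isoforms each, beside REV.7997 on chromosome 14 with 11. Each of these 5 had between 2 and 5 isoforms outside the top one, and REV.7378 had 9 distinct ends over 306 kb.

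**Figure D4:**
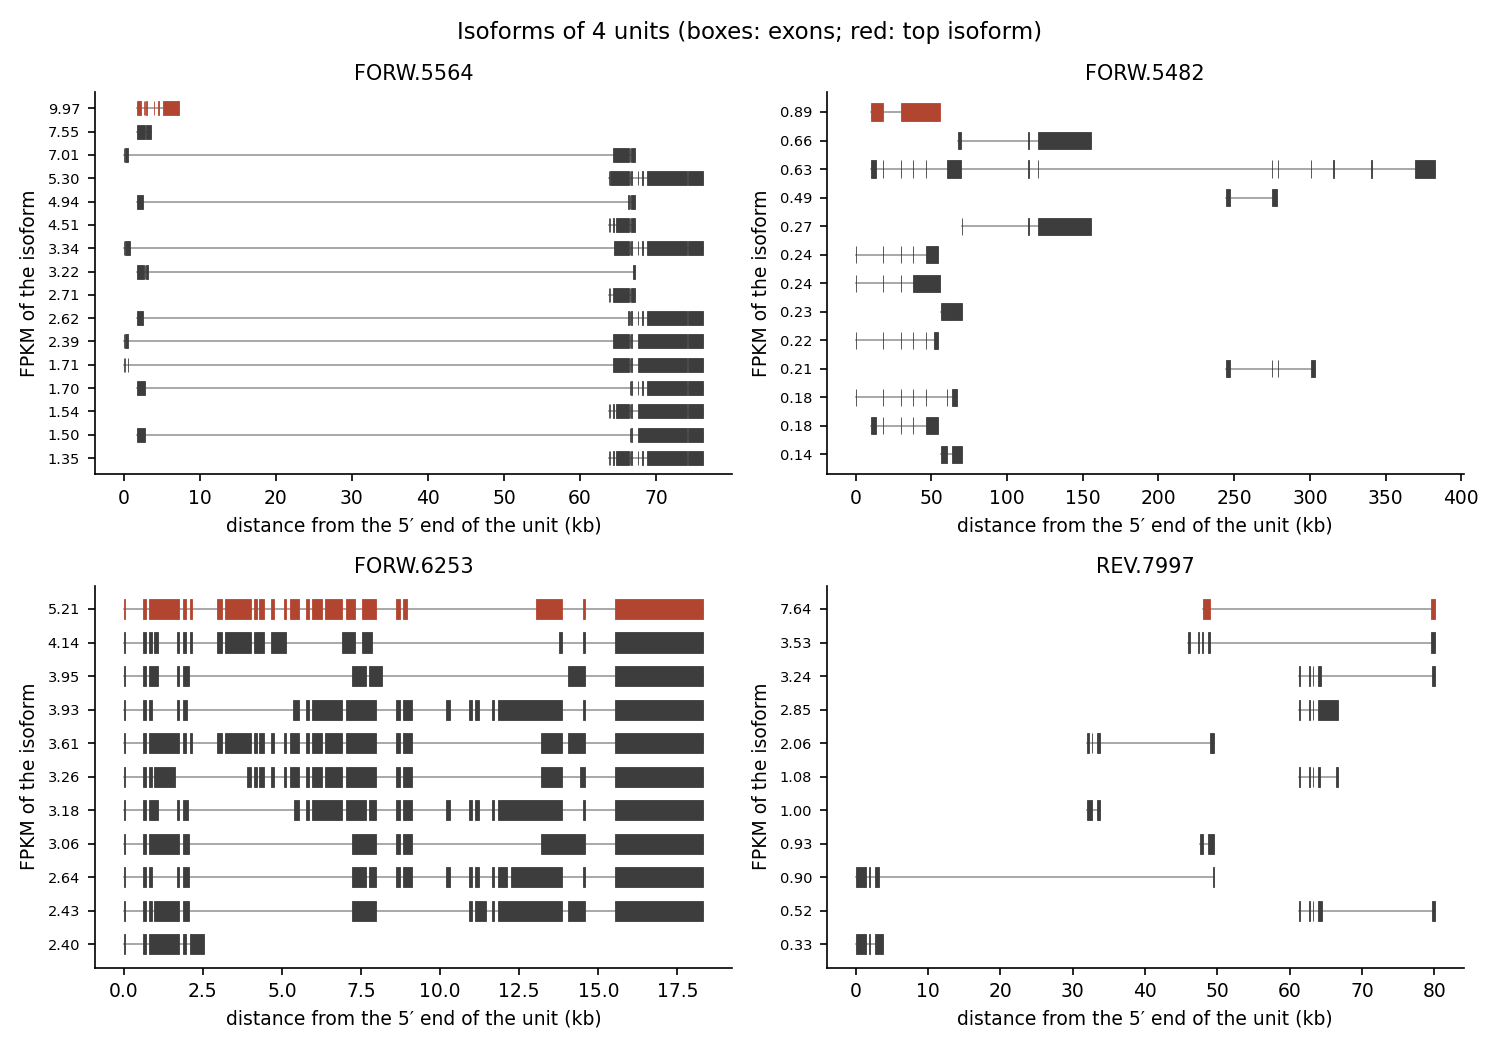
Isoforms of 4 TUs, the 3 forward and the 1 reverse TU with the most transcripts, drawn to scale by distance from the 5′ end of the TU (horizontal axis, kb) and ordered by FPKM (values at the left). Boxes are exons, lines introns and red the top isoform; the isoforms of FORW.6253 share the stretch of 18.3 kb apart from 1 short one, whereas those of FORW.5564, FORW.5482 and REV.7997 cover separate blocks of exons, which other isoforms join across long introns.

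REV.7997 (13614219 to 13694307, minus strand) had 6 distinct starts over 80.1 kb, and every one of its 10 minor isoforms started elsewhere than the top isoform. Its top isoform had 2 exons and an FPKM of 7.64, and the minor isoforms had between 0.332 and 3.53. Within this TU, 4 combinations of an internal exon and a neighbouring intron recurred with the same lengths at another place. The intron taken was the one at higher genomic position, which precedes the exon in a transcript of the minus strand. An exon of 254 bp preceded by an intron of 696 bp recurred 15.3 kb away, and one of 107 bp preceded by an intron of 392 bp recurred at 15.3 kb as well. Recurrence of at least 2 such combinations more than 1 kb apart was found in 4 members (1.13%), against 0.079% of all TUs with 2 or more transcripts. The measure was chosen after the values were seen, and its count can grow with the number of exons and isoforms listed. Beside REV.7997 these members were FORW.6253 and REV.6048 on chromosome 7, with 3 combinations each, and REV.8229 on chromosome 15 with 2. FORW.5564 had 1 such combination beside the equal exons given above. Whether the repeated stretches are similar in sequence, and whether reads could be assigned to one of them, was not tested.

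Skipped exons, by the definition used, were the least common kind of difference in the members besides other acceptors. When any internal exon inside an intron of the other isoform counted, their share was 15.0%, so this rank depended on the definition. An exon was skipped, with the flanking splice sites shared, in 7.70% (6.62% to 8.93%) of the minor isoforms of the members and in 8.77% of those of TUs with 2 or 3 transcripts, whereas among minor isoforms overlapping the top one the order was reversed, with 9.45% against 8.84%. In 74 members (20.9%) at least 1 minor isoform differed in this way, against 12.9% of all TUs with 2 or more transcripts, a count that grows with the number of isoforms compared. Of the 85 distinct exons skipped singly in the members, with a median length of 106 bp, 36 had a length divisible by 3 (42.4%, 32.4% to 53.0%), against 52.7% (48.7% to 56.6%) of 609 in TUs with 2 or 3 transcripts. These intervals overlap.

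In 8 of the 354 members exon skipping was the only kind of difference counted between the second and the top isoform, a count not made in other TUs. FORW.5097 on chromosome 5 (35950974 to 35976478, plus strand) was the strongest of these by its second isoform. Its top isoform had 6 exons and an FPKM of 13.2, and the second isoform, with an FPKM of 9.05, lacked an exon of 58 bp at 35961929 to 35961986 and joined its neighbours across 15361 bp. The remaining isoforms had 5.93, 5.77, 3.53 and 2.63, and all 6 shared their start and end. REV.9962 on chromosome 27 (3431240 to 3442317, minus strand) had 12 exons and an FPKM of 24.0 in its top isoform, while its second isoform with an FPKM of 3.56 lacked an exon of 58 bp at 3440914 to 3440971. In REV.3933 on chromosome 4 the second isoform lacked 2 neighbouring exons of 225 bp together, with an FPKM of 3.59 beside 7.39 in the top isoform.

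Intron retention was frequent in the members when first and last exons were counted as well as internal ones. An exon of one isoform contained a whole intron of the other in 45.9% (43.7% to 48.0%) of the comparisons of a minor with the top isoform in the members and in 50.1% in TUs with 2 or 3 transcripts, whereas among minor isoforms overlapping the top one the order was reversed, with 56.3% against 50.5%. When the containing exon had to be internal, the shares over all minor isoforms were only 16.3% and 8.74%. Most of these calls therefore rested on a first or last exon, where retention was not told apart from another start or end. Where the minor isoform had the same start and end as the top one, which held for 600 minor isoforms of the members, the share was 70.3% in the members and 60.2% in TUs with 2 or 3 transcripts. By TU, 275 members (77.7%) had a minor isoform with a retained intron, against 59.4% of all TUs with 2 or more transcripts. This count, too, grows with the number of isoforms compared. The intron was retained by the top isoform in 34.0% of the minor isoforms of the members and by the minor isoform in 21.3%.

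Over all pairs of isoforms, 1562 of the 6212 distinct introns of the members (25.1%) lay inside an exon of another isoform. This compared with 20.2% in TUs with 4 or 5 and 10.04% in TUs with 2 or 3 transcripts. The share can grow with the number of isoforms that can contain the intron. The introns so retained in the members had a median length of 1179 bp and the others 1315 bp. In TUs with 2 or 3 transcripts the retained introns were the longer ones, with 1105.5 bp against 786 bp. Short introns were retained most often in the members, with 37.6% of those under 200 bp, 19.5% of those of 500 to 1000 bp and 28.04% of those of 2000 to 5000 bp. In the other groups introns of 5000 bp or more had the highest share. It was 16.9% against 11.8% under 200 bp in TUs with 2 or 3 transcripts, and 25.2% against 24.1% in TUs with 4 or 5. In each of the 6 length classes the share was higher in the members than in TUs with 2 or 3 transcripts. Against TUs with 4 or 5 transcripts it was higher in all classes but the longest, where it was 22.3% against 25.2%. Poly(A) RNA and total nuclear RNA were pooled, so incomplete splicing and stable retention cannot be told apart here.

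**Figure D5:**
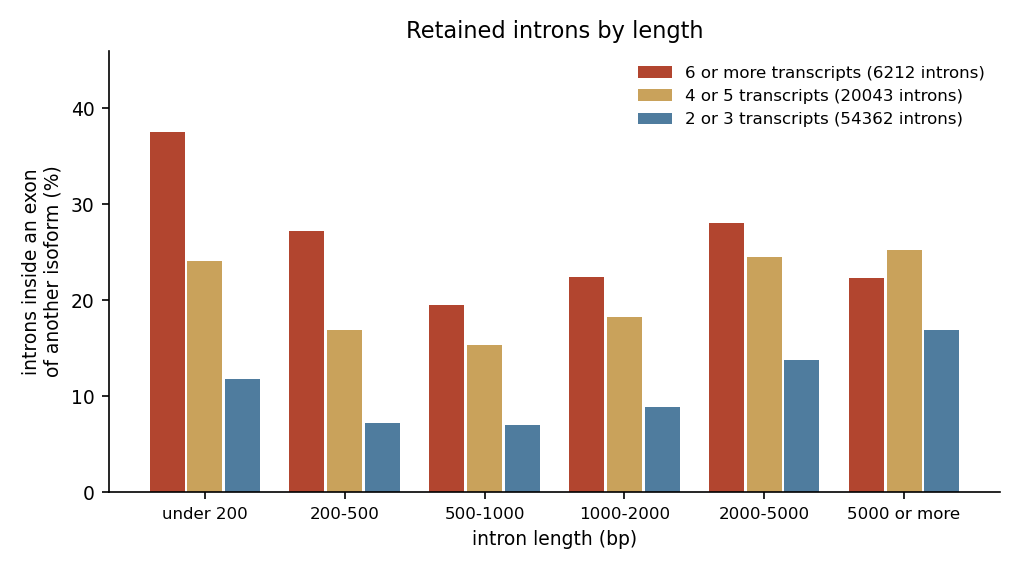
Share of distinct introns that lie inside an exon of another isoform of the same TU (vertical axis, %) by intron length (horizontal axis, bp), for TUs with 6 or more, 4 or 5, and 2 or 3 transcripts. The share is 37.6% against 11.8% in introns under 200 bp and 22.3% against 16.9% in introns of 5000 bp or more, for TUs with 6 or more against those with 2 or 3 transcripts.

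Of the kinds of difference counted, retention of introns was the only one between the top and the second isoform in 58 of the 354 members. Further changes could be present, since exons lacking without shared flanking splice sites were not counted. This was so in the second isoform of FORW.6253, whose introns ran across whole exons of the top isoform. Another end was the only kind counted in 43, another start in 12, a skipped exon in 8, another donor site in 8 and another acceptor site in 3. The count was not made in TUs with 2 or 3 transcripts, so whether this order is particular to the members is unknown. In FORW.3539 on chromosome 3 (95264114 to 95314800, plus strand) the top isoform, with an FPKM of 35.5, kept an intron of 199 bp at 95264810 to 95265008 that the second isoform, with 14.4, had spliced out. The remaining isoforms had 3.65, 2.00, 1.19 and 0.817, and 3 of them lay outside the top isoform, starting 36.2 kb downstream. In REV.9352 on chromosome 23 (13355 to 19178, minus strand) 6 isoforms with FPKM values of 11.5, 6.85, 6.55, 6.10, 4.83 and 2.54 shared start and end, and all 5 minor isoforms differed from the top one by a retained intron. Its second isoform kept an intron of 37 bp at 14506 to 14542, as drawn by the assembler. Whether so short a gap was spliced was not tested. In REV.1190 on chromosome 1 the second isoform, with an FPKM of 6.64 beside 8.15, kept an intron of 2586 bp.

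FORW.10354 on chromosome 28 (5925323 to 5931507, plus strand), the member with the highest summed FPKM (80.3), combined retention with other splice sites. Its top isoform had 3 exons and an FPKM of 42.1, which was 52.4% of the TU, and exons filled 93.5% of its span. The 6 minor isoforms had 9.07, 7.48, 6.83, 5.93, 5.01 and 3.87, all of them differed from the top one by a retained intron and 4 by another donor. Over all members another donor was found in 14.9% of the minor isoforms and another acceptor in 7.60%, against 14.2% and 13.3% in TUs with 2 or 3 transcripts. By TU, 131 members (37.0%) had another donor and 88 (24.9%) another acceptor, against 20.3% and 17.8% of all TUs with 2 or more transcripts. These counts grow with the number of isoforms compared, and for acceptors the share per minor isoform was lower in the members.

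The second by summed FPKM, REV.5393 on chromosome 6 (11817541 to 11896911, minus strand), had 75.2 and consisted of blocks more than 60 kb apart. Near its 3′ end lay the top isoform with 23.7 and the second isoform with 20.5, which shared the start and differed by an end 4.63 kb further downstream. At the 5′ end of the TU lay 4 isoforms with 9.86, 8.47, 4.29 and 2.30, wholly outside the top isoform, and 1 isoform with 3.05 linked the blocks over 76.4 kb. Its FPKM was below that of 6 of the other isoforms. In 2 other named pairs, too, the end was the only kind of difference counted. FORW.8624 on chromosome 17 had FPKM values of 9.06 and 3.74 and an end 121 kb further downstream in the second isoform. REV.384 on chromosome 1 had 4.55 and 3.25 and an end 4.82 kb upstream.

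Another start was the only kind of difference counted between the strongest isoforms of FORW.8773 on chromosome 18 (7485075 to 7597478, plus strand), the third by summed FPKM (66.8). Its top isoform with 32.3 and 13 exons started 82.8 kb downstream of the second isoform, which had 14.6 and 28 exons and ended at the same place. The isoforms with 11.1 and 6.96 shared the start of the top isoform, while the 2 isoforms with 1.01 and 0.898 started at the upstream site and ended before the top isoform began. In REV.3709 on chromosome 4 (13176630 to 13184600, minus strand) the isoforms with 12.7 and 6.99 differed by a start 243 bp apart, and those with 4.18 and 2.05 used further starts. REV.2328 on chromosome 2, which with a top isoform of 95.4 kb and 22 exons also lay just inside the limit on span, had FPKM values of 5.65 and 5.23 from starts 95.9 kb apart.

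The members overlapped a TU of the other strand in 169 cases (47.7%), against 45.2% of TUs with 4 or 5, 42.4% of TUs with 2 or 3 and 39.8% of TUs with 1 transcript. Overlap was counted over the span of the whole TU, which was longer in the members and can meet more TUs. The shares were not compared at equal span. Strand and run disagreed in 0 of the 354 members, against 18 TUs (0.315%) with 2 or 3 transcripts. The count of 0 allows a share of up to 1.07% by the Wilson interval.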

How the data were processed

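The deposited file holds 1 pooled assembly. According to the methods and the file header, the authors trimmed reads with cutadapt, aligned them with HISAT2 to ASM2420605v2, removed duplicates with SAMtools, pooled all experiments and ran StringTie 2.2.2 once per strand. Transcripts were kept above a coverage of 1.2 (multi-exon) or 3.5 (single-exon), an isoform fraction of 0.05 and a length of 1000 bp. Junctions needed 5 reads anchored by 10 bp, and alignments up to 300 bp apart were bundled. The authors deposited coverage, FPKM and TPM per transcript. FPKM was used as deposited, and 1 FPKM stood for a coverage of 10.6 (forward) or 10.5 (reverse), so both runs were put together without rescaling or a pseudocount. No p-value was computed.

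Isoforms were compared with the top isoform of their TU by the ends (more than 100 bp apart), by skipped exons (an intron with the donor and the acceptor of 2 different introns of the other isoform), by retained introns and by other donors or acceptors, in Python 3.11.15 with NumPy 2.4.6 and SciPy 1.17.1. The event calls were tested on simulated pairs of overlapping multi-exon transcripts that differed by a single event, with splicing events away from the first and last exons. Several events together, retention in a first or last exon and isoforms outside the top one were not simulated. TUs were named by rank of transcript number, summed FPKM, top share, single events between the strongest isoforms and nearness to the limits. The members, lists and ranks were chosen with earlier results of these data known. Lists of genes and cell type markers were not used, since the file gives no gene names and the annotation at hand was of another build. For the same reason no sequence was printed.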

Additional observations from a re-analysis of the deposited data

How the results depend on the processing

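The number of members, the top share, the shares of minor isoforms with another start, another end, a skipped exon or a retained intron, and the span, FPKM and exon number of the top isoform were recomputed under the alternatives. The other values were not. The number of members was 830 at 5 or more and 73 at 8 or more transcripts. The median top share was 28.1% at 8 or more transcripts and 35.2% in TUs not below the median FPKM of the assembly. Another start was found in 36.6% of minor isoforms at a tolerance of 500 bp, 37.2% where first exons did not overlap and 26.9% among isoforms overlapping the top one. Another end was found in 52.0% where last exons did not overlap and 51.0% among overlapping isoforms. For skipped exons the members lay below TUs with 2 or 3 transcripts, and the order reversed when any internal exon inside an intron counted (15.0% against 10.9%), in the reverse run (9.03% against 8.70%) and among overlapping isoforms (9.45% against 8.84%), while the forward run gave 6.33% and TUs with 1000 to 2000 kb of read bases 9.10%. For retained introns it reversed when the exon had to be internal (16.3% against 8.74%) and among overlapping isoforms (56.3% against 50.5%), and was 43.6% in TUs with 1000 to 2000 kb of read bases. The median span was 36.1 kb with no limit on span and 56.9 kb for the whole TU. The median FPKM was 3.73 in TUs not below the median FPKM and 2.82 at 1000 to 2000 kb of read bases, and the order reversed for the summed FPKM (7.93 against 5.89). The median exon number was 5.5 in TUs not below the median FPKM, and the order reversed for distinct exons over all isoforms (20 against 8). The cause of these changes was not tested. The alternatives on overlap, read bases and recurring lengths were chosen after seeing the data, and leaving out the 4 TUs with recurring lengths left 350 members and kept the direction of each of these results.

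No paired analysis was possible because the reads had been pooled into a single assembly, so leaving out a replicate was not run either. The minima of coverage, length and isoform fraction limit which isoforms are listed. The FPKM of overlapping isoforms is the estimate of the assembler. The number of molecules behind a transcript and the oocyte it came from are unknown.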
